A study of Drosophila melanogaster with 8 samples.

Results

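Fuca and 7 other glycosidase genes of Drosophila melanogaster were examined in fly ovaries enriched for GSC-like cells, which resemble the stem cells of the germline. The 8 genes were chosen by symbol from the authors' comparison table, out of the 11397 genes listed there, and all 8 also have a row among the 14094 genes of the abundance table. Fuca was picked for its large difference between the groups, and the others as genes of the same enzyme class, with the same comparison known. Their values in the comparison of the groups are therefore given as a description. Where their calls are counted beside those of all genes, the count restates this choice and tests nothing.

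Polyadenylated RNA was sequenced from 8 ovary samples of females aged 4 to 5 days, each made from about 35 pooled ovaries. The 4 controls carry the genotype label Control, and the other 4 carry the label Stwl overexpression, with StwlEY in their titles. Stonewall (Stwl) is a DNA-binding protein needed to keep female germline stem cells. The tools that enriched the GSC-like cells in both groups, the promoter that drove Stwl and the genetic background of the groups are not stated, so an effect of Stwl and a difference between strains cannot be told apart. Nothing says that replicates came from separate crosses, and p-values therefore measure only the spread between these samples.

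Lysosomal glycosidases are acid hydrolases that strip sugars stepwise from the ends of glycans on proteins and lipids delivered to the lysosome. Each enzyme removes a particular terminal sugar, so fucosidase, hexosaminidase, mannosidase and galactosidase act in sequence on the same chain. In flies most N-linked glycans end as short mannose-rich forms that often carry fucose on the innermost sugar. Inherited loss of the matching human enzymes causes lysosomal storage diseases such as fucosidosis, alpha-mannosidosis and GM1 gangliosidosis.

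The targeted gene stwl was at 25.1, 21.9, 23.6 and 23.5 TPM in controls 1 to 4 and at 45.5, 55.5, 62.6 and 67.8 TPM in overexpression libraries 1 to 4, in accord with the labels. TPM is an abundance per transcript length with an equal total in each library. It keeps no depth, so no counting interval could be given. The 8 germline markers summed to 1085 to 1186 TPM in controls and 826 to 1159 TPM with overexpression, mostly from vas, piwi, aub, zpg and nos. Their median log2 fold change was -0.13, and bgcn was called lower. The differentiation gene bam was at 6.17 to 8.07 TPM over all libraries, and osk at 0.34 to 1.52 TPM except for 25.9 TPM in overexpression 1. Other cell types were present too. All 7 chorion genes, which late follicle cells express, were called higher, with a median log2 fold change of 4.30, and their sum was 95.02 to 739 TPM in controls and 1484 to 6803 TPM with overexpression. Of 11 muscle sheath genes 9 were called higher, and their sum went from 2234 to 3024 TPM in controls to 3715 to 4590 TPM with overexpression. Of 9 hemocyte genes 5 were called higher, with sums of 145 to 169 and 183 to 234 TPM, and no marker of these lists was listed at 0 in every library. The sums of the 8 genes of niche and early follicle cells, 398 to 446 and 419 to 498 TPM, did not separate the groups. Nor did those of the 7 fat body genes, 67.6 to 141 and 55.0 to 149 TPM. Of 5 tested fat body genes, however, 1 was called lower. Obp99a of that list was at 54.4 to 77.4 TPM in controls and 31.6 to 53.3 TPM with overexpression. Control 1 held 166 TPM of spermatheca markers, against at most 0.518 TPM in any other library, and control 3 held 114 TPM of midgut markers, against at most 7.53 TPM elsewhere. In bulk samples, more cells of a type and more RNA per cell cannot be told apart.

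Fuca encodes the alpha-L-fucosidase of the fly, which removes terminal fucose. The gene (FBgn0285958) lies on chromosome 3L at 11518798 to 11522713 on the minus strand in the BDGP6 build. Its abundance was 2.77, 3.11, 3.65 and 3.64 TPM in controls 1 to 4 and 25.0, 31.9, 34.1 and 37.3 TPM in overexpression libraries 1 to 4. Every overexpression library thus stood far above every control, and the lowest of them was overexpression 1. The means were 3.29 ± 0.428 and 32.1 ± 5.21 TPM (SD, n = 4 each), a ratio of 9.74. On the log2(TPM + 1) scale, which understates the change of low genes, Fuca had a log2 fold change of 2.94 ± 0.132 (SE). It ranked 8 among the 8898 genes that averaged 1 TPM or more, counted from the largest rise. Leaving out single libraries gave values between 2.86, without overexpression 4, and 3.05, without overexpression 1. The authors' deposited table gives Fuca 3.24 ± 0.114 (SE) on the log2 scale.

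**Figure D1:**
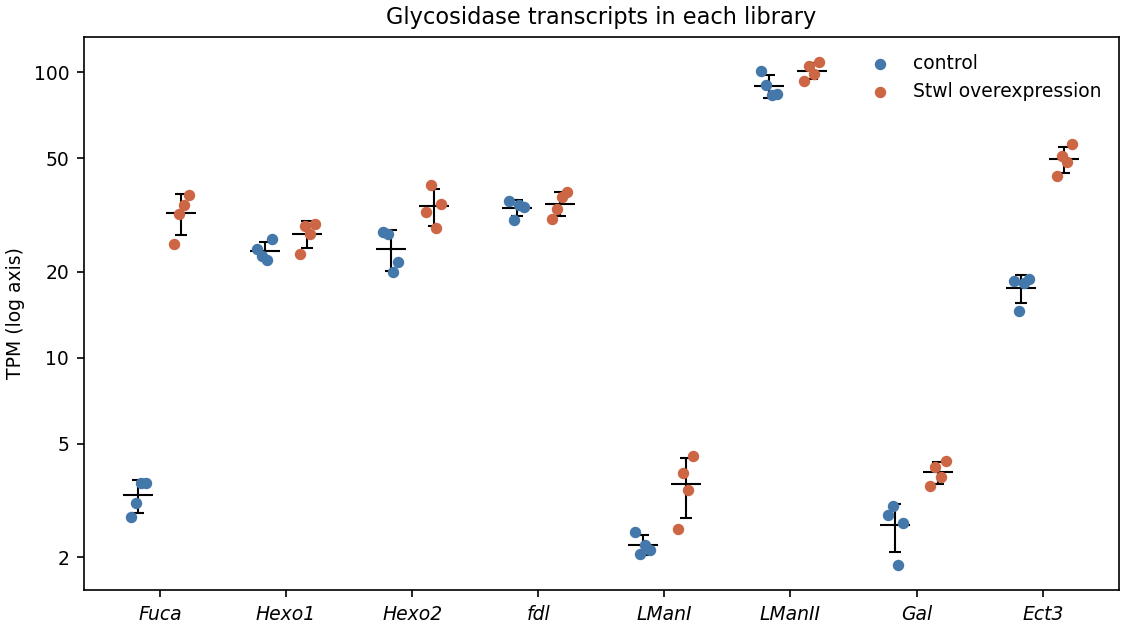
TPM of the 8 glycosidase genes in each library, on a log axis, with 4 control and 4 Stwl overexpression libraries per gene; points are libraries 1 to 4 from left to right, and horizontal marks with bars are the mean and SD. Fuca moves from 2.77 to 3.65 TPM up to 25.0 to 37.3 TPM, Ect3 from 14.6 to 18.8 up to 43.1 to 55.8 TPM, while the 2 groups of fdl, Hexo1 and LManII overlap.

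The Fuca locus is shared with a second protein-coding gene of no given function, CG11714 (FBgn0036170), which was added after its values were seen. Both genes have the same annotated span and strand in the Ensembl annotation. The coding region of CG11714 lies upstream, and 622 bases separate it from that of Fuca. Of the 2 annotated Fuca transcripts, FBtr0346860 has 7 exons and 3513 bases, and its exons are identical to those of the CG11714 transcript FBtr0346859. That RNA can carry both coding regions, and its reads cannot be assigned to either gene. The other Fuca transcript, FBtr0100588, starts 1889 bases further downstream, has 1675 bases and holds only the fucosidase coding region of 1482 bases. Since the abundances are given per gene, they do not show which of these transcripts carried the difference.

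**Figure D2:**
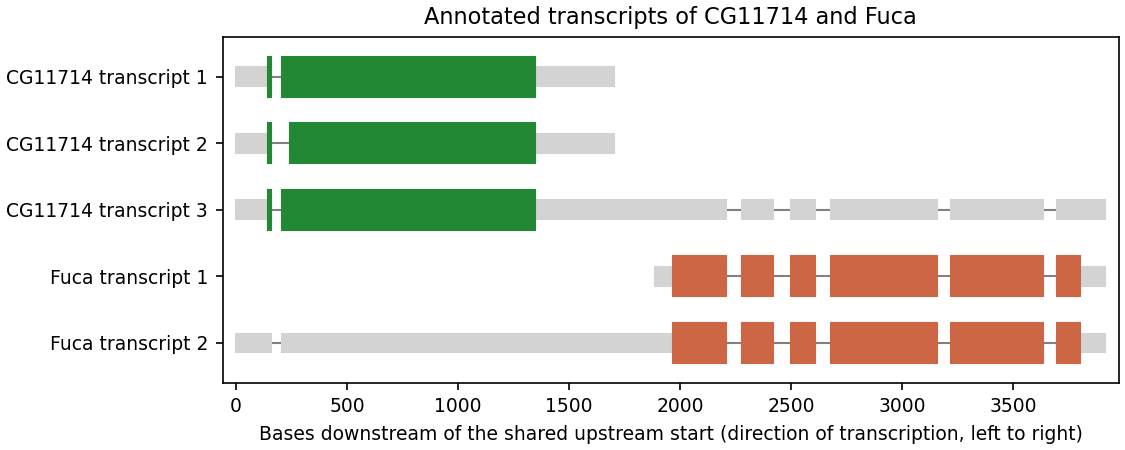
Annotated transcripts of CG11714 and Fuca, in bases downstream of their shared upstream start, with transcription from left to right; thin grey boxes are untranslated exons, tall boxes coding regions (green CG11714, orange Fuca), and lines introns. The third CG11714 transcript and the second Fuca transcript have the same 7 exons, whereas the first Fuca transcript starts 1889 bases downstream.

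CG11714 differed between the groups in the same direction as Fuca at a far lower level. It was at 0.166, 0, 0.0548 and 0.125 TPM in controls 1 to 4 and at 1.68, 1.66, 2.17 and 1.76 TPM in overexpression libraries 1 to 4, so the groups did not overlap. With a mean below 1 TPM it was not among the 8898 genes tested. The authors' deposited table gives it 4.42 ± 0.414 (SE) on the log2 scale. CG11714 made up 4.50% to 6.29% of the summed TPM of both genes in overexpression libraries, and 0% to 5.64% in controls. Reads of the transcript with identical exons fit both genes, so levels and shares depend on how such reads were split, which is not stated. Taking both genes together, the locus was at 2.94 to 3.76 TPM in controls and at 26.6 to 39.0 TPM with overexpression, as far apart as for Fuca alone.

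Neither gene beside Fuca was called in limma with the minimum of 1 TPM, but CG7512 was higher in every overexpression library than in every control. The ratio of its means was 1.75, against 9.74 for Fuca. Mob2, a co-activator of Ndr family kinases, ends 43 bases upstream of the Fuca start on the same strand. It was at 45.5 ± 1.49 and 47.1 ± 6.53 TPM (SD, n = 4 each). This was no call (log2 fold change 0.04 with a 95% confidence interval of -0.18 to 0.25, adjusted p 0.881 in limma). CG7512, on the opposite strand, overlaps the 3' end of Fuca by 107 bases. It was at 0.639, 0.772, 1.12 and 0.794 TPM in controls and at 1.21, 1.54, 1.53 and 1.54 TPM with overexpression, also without a call (log2 fold change 0.43, adjusted p 0.119 in limma), although it passed with no filter on low values (adjusted p 0.0438 in limma) and in the authors' deposited table (adjusted p 0.0116). Whether the reads were counted by strand is not given in the sources used here, so reads of CG7512 and of the end of Fuca cannot be fully told apart.

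Ect3 belongs with Gal to the acid beta-galactosidases, which remove terminal galactose. Ect3 (FBgn0260746) lies on chromosome 3R at 11999278 to 12003516, within the span of Tk, a neuropeptide gene on the opposite strand that was at 0.257 TPM on average in controls and 0.233 TPM with overexpression. It was at 18.5, 14.6, 18.3 and 18.8 TPM in controls and at 43.1, 51.0, 48.4 and 55.8 TPM in overexpression libraries. The groups did not overlap, and control 2 lay below the other controls. The ratio of the means was 2.83 and the log2 fold change 1.45 ± 0.104 (SE). It lay between 1.367, without control 2, and 1.51, without overexpression 1, when single libraries were left out. The authors' deposited table gives 1.47 ± 0.0804 (SE).

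Gal (FBgn0001089, chromosome 2L, 6003574 to 6006827), the other beta-galactosidase gene, was scarce. It was at 2.805, 3.03, 1.88 and 2.63 TPM in controls and at 3.54, 4.14, 3.83 and 4.34 TPM in overexpression libraries. The groups did not overlap, but the gap between the highest control and the lowest overexpression library was narrow. The log2 fold change was 0.48 with a 95% confidence interval of 0.17 to 0.78. Ect3 was the more abundant of the pair in every library, at 7.07 ± 2.03 times the level of Gal in controls and 12.5 ± 0.306 times with overexpression (SD, n = 4 each).

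The hexosaminidases remove terminal N-acetylglucosamine or N-acetylgalactosamine. Hexo2 (FBgn0041629, chromosome X, 8709652 to 8712478) was at 27.6, 27.1, 19.9 and 21.6 TPM in controls and at 32.3, 40.3, 28.5 and 34.5 TPM with overexpression. Its groups did not overlap, with overexpression 3 only just above control 1. The log2 fold change was 0.48 with a confidence interval of 0.18 to 0.78. Hexo1 (FBgn0041630, chromosome 3L, 4288641 to 4291211) was at 23.9, 22.7, 22.0 and 26.03 TPM and at 23.0, 28.98, 27.1 and 29.4 TPM. Its groups overlapped because overexpression 1 lay within the control range, and the log2 fold change was 0.19 with a confidence interval of -0.02 to 0.39.

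The third gene, fdl (fused lobes; FBgn0045063, chromosome 2R, 12487451 to 12507333), encodes the enzyme that trims N-acetylglucosamine from N-glycans on their way through the secretory pathway and so sets the short fly glycan forms. It was at 35.5, 30.4, 34.2 and 33.6 TPM in controls and at 30.7, 33.2, 36.4 and 38.0 TPM with overexpression. The 2 groups covered nearly the same range. The log2 fold change of fdl was 0.05 with a confidence interval of -0.14 to 0.23.

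The 2 lysosomal alpha-mannosidase genes, whose products remove mannose from degraded N-glycans, lie next to each other on chromosome 2L in opposite orientation, with 416 bases between their spans. LManII (FBgn0027611, 10457658 to 10462472) was the most abundant of the 8 genes. It was at 101, 90.1, 83.0 and 84.1 TPM in controls and at 93.3, 105, 98.2 and 109 TPM with overexpression, so the groups overlapped (log2 fold change 0.18, confidence interval 0.0029 to 0.35). LManI (FBgn0032253, 10452677 to 10457241) was at 2.46, 2.05, 2.20 and 2.12 TPM in controls and at 2.52, 3.95, 3.44 and 4.53 TPM with overexpression. The groups of LManI did not overlap, but overexpression 1 lay just above control 1, and its overexpression libraries varied most among the 8 genes, with an SD of 23.7% of the mean. The log2 fold change was 0.50 with a confidence interval of 0.16 to 0.85. LManII exceeded LManI 40.6 ± 2.62 times in controls and 29.03 ± 5.70 times with overexpression (SD, n = 4 each).

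Considered together, the log2 fold change was above 0 for all 8 genes. Its median was 0.48, against 0.01 over all tested genes, of which 54.0% were above 0. All 8 passed the minimum abundance. By the call rule applied to all genes in limma, 2 of the 8, Fuca and Ect3, counted among the higher genes, which made up 6.2% of those tested. For 5 of the 8 every overexpression library lay above every control, as it did for 10.3% of all tested genes. By the authors' deposited table, 5 of 8 had an adjusted p below 0.05 and were higher, against 10.5% of its tested genes. These 5 were Fuca, Ect3, LManI, Gal and Hexo2, which are also those whose groups did not overlap. The authors' own mark in that table reads Up for Fuca, Ect3 and LManI, but NC for Gal and Hexo2. Since the genes were chosen with this comparison in view, these shares say nothing about glycosidases as a class.

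**Figure D3:**
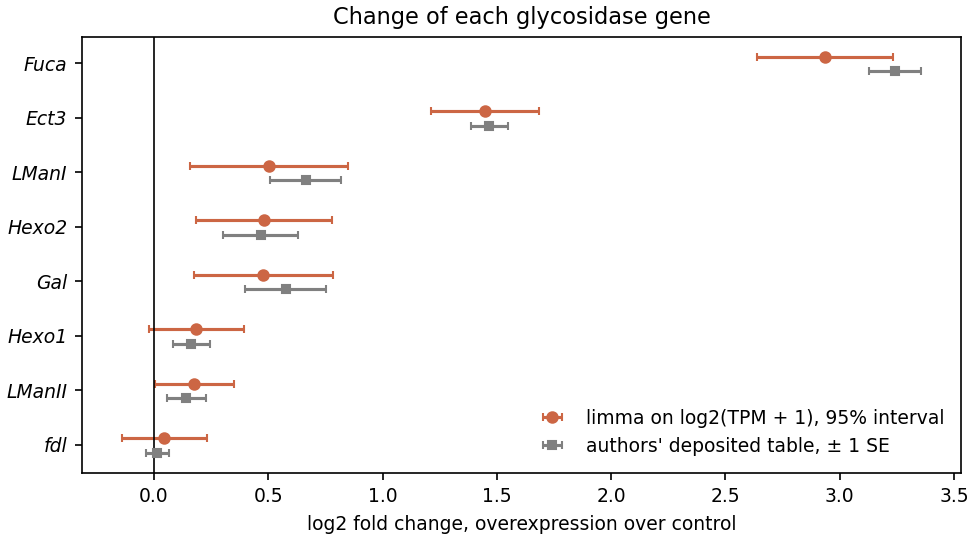
Log2 fold change of each glycosidase gene, overexpression over control, from limma on log2(TPM + 1) with its 95% confidence interval (orange circles) and from the authors' deposited table with 1 standard error to either side (grey squares). Fuca at 2.94 and Ect3 at 1.45 stand apart from the other genes, which lie between 0.05 and 0.50 in limma.

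The summed abundance of the 8 genes was 215, 193, 185 and 193 TPM in controls 1 to 4 and 253, 298, 280 and 312 TPM in overexpression libraries 1 to 4. Fuca and Ect3 accounted for most of this difference. Without them the sum was 176 ± 12.9 and 204 ± 15.8 TPM (SD, n = 4 each), a ratio of 1.16, and overexpression 1, at 185 TPM, lay below control 1, at 193 TPM. By enzyme activity, the ratio of means was 9.74 for the fucosidase, 2.66 for the beta-galactosidases, 1.18 for the hexosaminidases and 1.14 for the alpha-mannosidases.

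In controls the levels fell from LManII over fdl, Hexo2, Hexo1 and Ect3 to Fuca, Gal and LManI. The ranges of Hexo2 and Hexo1 overlapped, as did those of Fuca and Gal and of Gal and LManI, so the order within these pairs is not resolved. With overexpression Ect3, at 49.6 ± 5.30 TPM, ranked second after LManII, at 101 ± 6.76 TPM (SD, n = 4 each). Fuca had then left the scarce genes and lay among fdl, Hexo2 and Hexo1, with ranges that overlapped from each gene to the next. Gal and LManI stayed at the low end, at 3.96 ± 0.351 and 3.61 ± 0.855 TPM.

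Overexpression 1 had the lowest value of its group for 7 of the 8 genes, Hexo2 being the exception, and overexpression 4 the highest for 7, again without Hexo2. Median-of-ratios scaling factors, which follow the typical gene of each library, were 0.905, 0.982, 1.06 and 1.11 in overexpression libraries 1 to 4. These factors thus had the same ends, but the share of all genes with that order was not counted. Their part in the order of the glycosidase genes was not tested. Overexpression 1 and 4 were also lowest and highest for stwl, at 45.5 and 67.8 TPM, and for the germline sum, at 826 and 1159 TPM. The hemocyte sum had the same ends, at 183 and 234 TPM, but came mostly from crq, at 109 to 143 TPM with overexpression. Hml, NimC1, eater, Sr-CI, PPO1 and PPO2 were instead highest in overexpression 2, crq in overexpression 3, and He and srp in overexpression 4. Other lists followed another order. The chorion sum was highest in overexpression 1, at 6803 TPM, and lowest in overexpression 2, at 1484 TPM, and the muscle sum was highest in overexpression 2, at 4590 TPM, and lowest in overexpression 1, at 3715 TPM. The part of these markers in the glycosidase values was not tested. Among controls, control 1, which held the spermatheca markers, was highest for 4 of the 8 genes, fdl, Hexo2, LManI and LManII. Without control 1 the log2 fold changes of Fuca, Ect3, LManII and Hexo2 were 2.88, 1.48, 0.23 and 0.55.

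The authors' deposited table also marks each gene for a Stwl peak within 1 kb of its body. All 8 glycosidase genes carry the mark, as do 73.7% of all listed genes. CG11714, CG7512 and Mob2 carry it too. The table further names 5 of the 8 genes as upregulated in other studies, where 21.2% of all listed genes are so named. Hexo2, LManII and Gal are listed under both studies, LManI under Kotb et al., 2023, and Ect3 under Zinshteyn et al., 2022. Fuca, Hexo1 and fdl are listed under neither. What those studies compared and where the peaks come from is not given in the file.

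The genes whose profiles were nearest to Fuca were named by the root mean square difference of log2(TPM + 1), each gene centred on the mean of its controls, over the 8 libraries. This difference depends on the size of the change between the groups as well as on the spread within them. Since Fuca was picked for the size of its change, nearness to it partly restates that choice. CG12592 on chromosome 3R came closest, with a difference of 0.175. It was at 1.69, 2.45, 2.60 and 2.47 TPM in controls and at 19.3, 21.8, 21.9 and 21.7 TPM with overexpression, with a narrower spread among overexpression libraries than Fuca, an SD of 5.93% against 16.3% of the mean. The receptor gene mthl4 followed at 0.466, then CG13332 at 0.673, CG12814 at 0.744 and betaNACtes3, a subunit of a nascent-chain complex found in testis, at 0.759. The log2 fold changes of these 5 genes were 2.75, 2.28, 2.02, 1.91 and 1.91. Ect3, the nearest of the other 7 glycosidase genes, ranked 23 with a difference of 1.06. Only betaNACtes3 of the 5 is, like Ect3, listed in the authors' deposited table under Zinshteyn et al., 2022 alone, whereas CG12592 and CG13332, like Fuca, are listed under neither study.

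**Figure D4:**
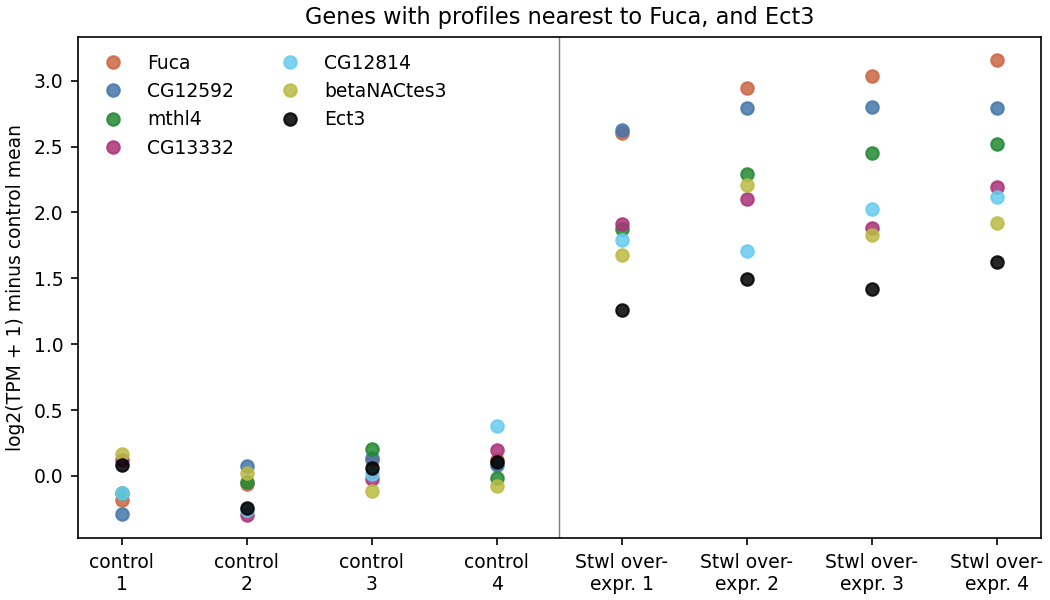
Log2(TPM + 1) minus the mean of the 4 controls for Fuca, the 5 genes with the nearest profiles and Ect3, in each of the 8 libraries; each point is a library. CG12592 runs closest to Fuca, and Ect3 lies below all 6 in every overexpression library.

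The remaining enzymes and membrane genes of the lysosome, and the genes that build the glycans, were taken from 8 lists holding 123 tested genes. Of these, 3 were called higher and 2 lower in limma, or 4.07%, against 8.38% of all tested genes called in either direction. Their median log2 fold change was 0.04, and 78 of 123 were positive. These counts depended on single libraries. The higher genes numbered 15 without overexpression 1, 1 without control 1, control 3, control 4 or overexpression 4, and 0 in limma without overexpression 2 or overexpression 3, where 15 and 12 had an unadjusted p below 0.05. The lower genes numbered 1 without control 3, control 4, overexpression 2 or overexpression 3. With median-of-ratios scaling between libraries 8 were higher and 4 lower, and the calls over all genes moved from 552 higher and 194 lower to 806 and 626.

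None of the 7 tested genes listed with the other lysosomal glycosidases was called in limma. None had an unadjusted p below 0.05 either, and 0 of the 11 tested in the authors' deposited table passed. The most abundant were CG7997, an alpha-galactosidase relative, at 58.5 ± 4.82 and 57.5 ± 4.39 TPM, and beta-Man, a beta-mannosidase, at 41.1 ± 0.939 and 45.1 ± 4.69 TPM (SD, n = 4 each). Their log2 fold changes were -0.02 and 0.12, with 95% confidence intervals of -0.20 to 0.15 and -0.05 to 0.30. The log2 fold changes of the 7 genes ran from -0.15 to 0.26, all smaller in size than those of Hexo2, LManI and Gal. Those of fdl, Hexo1 and LManII, at 0.05, 0.19 and 0.18, fell within that range. The further mannosidase genes LManIII, LManIV, LManV and LManVI were below the minimum abundance and were not tested.

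Of 5 tested lysosomal sulfatases, which remove sulfate from glycosaminoglycans, CG18278 and CG30059 fell. Both are related to N-acetylglucosamine-6-sulfatase and lie close together on chromosome 2R, at 13408042 to 13409887 and 13412769 to 13414620. CG18278 was at 14.5, 12.5, 12.4 and 11.95 TPM in controls and at 0.438, 3.79, 3.52 and 2.95 TPM with overexpression (log2 fold change -2.05, standard error 0.342, adjusted p 0.0065 in limma, lower in 4 of 4 libraries). CG30059 was at 7.82, 10.01, 12.8 and 14.8 TPM and at 4.71, 6.37, 6.12 and 6.46 TPM (log2 fold change -0.81, standard error 0.182, adjusted p 0.0249 in limma). The groups did not overlap for either gene. The call of CG30059 was lost without control 3, control 4, overexpression 2 or overexpression 3, with adjusted p of 0.0723, 0.0645, 0.0588 and 0.0614 in limma. The list was drawn up with the fall of CG18278 already known.

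Among genes of the lysosome membrane and its proton pump, Lamp1 and Vha36-3 rose slightly. Lamp1, a major protein of the lysosome membrane, was at 246, 258, 249 and 235 TPM in controls and at 269, 291, 301 and 316 TPM with overexpression (log2 fold change 0.25, standard error 0.0569, adjusted p 0.0264 in limma), as 1 of 26 genes of lysosome membrane, sorting and transport. It lost the call without control 1, 3 or 4 or overexpression 2, 3 or 4, with adjusted p between 0.0571 and 0.0821. Of 21 V-ATPase genes, which encode the proton pump that acidifies lysosomes, Vha36-3 passed. It was at 5.21, 4.44, 4.52 and 5.19 TPM in controls and at 6.04, 7.92, 7.42 and 6.88 TPM with overexpression (log2 fold change 0.46, standard error 0.108, adjusted p 0.0289 in limma). It lost the call when any library other than overexpression 1 was left out (adjusted p 0.0556 to 0.101), with no filter, with a minimum mean of 5 TPM and with a replicate block (adjusted p 0.0564, 0.055 and 0.0736). The medians of the 2 lists were 0.02 and 0.09. For the membrane list the median was -0.01 with median-of-ratios scaling.

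Lysosomal proteases, lipases, nucleases and their cofactors had a median of 0.12 and no call among 17 genes in limma, with 4 higher at an unadjusted p below 0.05 and 2 higher in the authors' deposited table. The protease gene Cp1 (cathepsin L) was at 1655 ± 197 and 1621 ± 170 TPM and Sap-r, the saposin precursor that presents lipids to glycosidases, at 1000.2 ± 50.6 and 1020.6 ± 83.0 TPM (SD, n = 4 each). Of 22 autophagy genes none was called in limma, 1 was higher at an unadjusted p below 0.05, and 1 was lower in the authors' deposited table. Atg8a, which coats autophagosomes, was at 532 ± 39.6 and 556 ± 101 TPM, and the cargo receptor gene ref(2)P at 128 ± 9.30 and 144 ± 23.9 TPM (SD, n = 4 each).

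On the side of synthesis, none of 9 tested genes of fucose supply and fucose transfer was called in limma, none had an unadjusted p below 0.05, and none passed in the authors' deposited table. O-fut1, which adds fucose to Notch, was at 42.9 ± 2.35 and 42.7 ± 2.56 TPM, and Gmd, which starts the making of GDP-fucose, at 38.3 ± 2.91 and 39.4 ± 1.26 TPM (SD, n = 4 each). Among 16 N-glycan processing genes, Mgat2, which adds N-acetylglucosamine to the second arm of N-glycans, rose. It was at 8.06, 8.33, 7.47 and 8.36 TPM in controls and at 9.91, 11.9, 11.6 and 12.8 TPM with overexpression (log2 fold change 0.47, standard error 0.0937, adjusted p 0.0154 in limma, higher in 4 of 4 libraries). Without control 3, overexpression 2 or overexpression 3 its adjusted p was 0.0554, 0.0569 and 0.0509. The list's median was 0.00095, and -0.03 with median-of-ratios scaling.

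**Figure D5:**
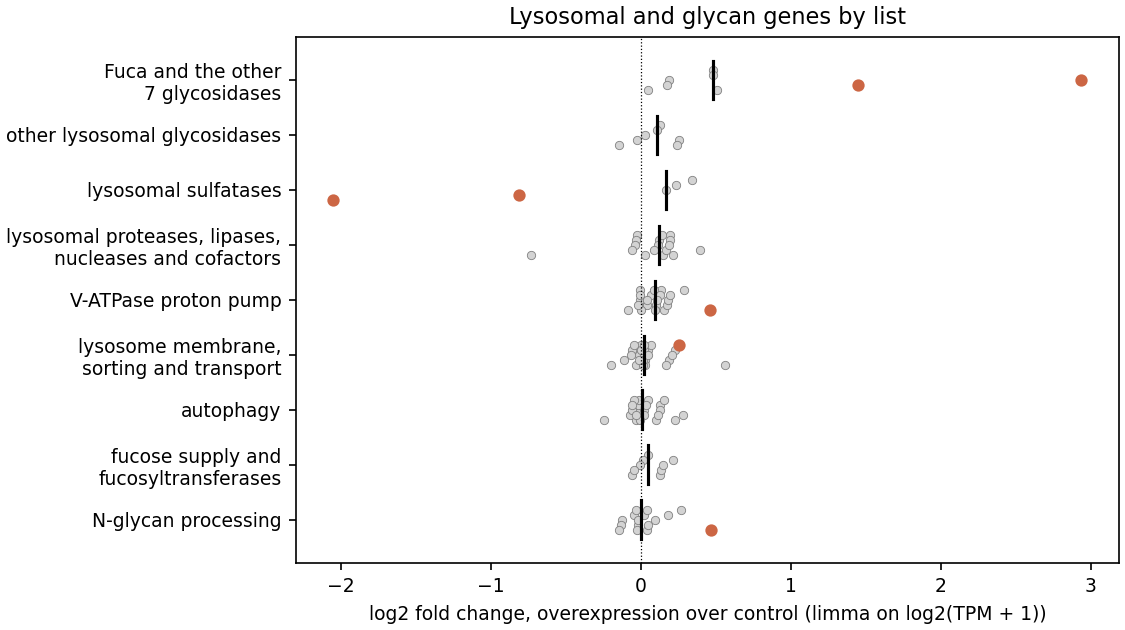
Log2 fold change, overexpression over control, of the tested genes of each list, with the 8 glycosidase genes in the top row; each point is a gene, orange points passed limma at an adjusted p of 0.05, and black bars are medians. Most listed genes lie close to 0, with CG18278 at -2.05 and CG30059 at -0.81 on the left and Fuca at 2.94 on the right.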

How the data were processed

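The authors deposited TPM values for 14094 genes in 8 libraries. Although the column names speak of log2, these TPM are on a linear scale, because every library adds up to 1000000. The authors also deposited their own comparison, with log2 fold changes, standard errors, p-values, a test statistic (a score) and a mean normalized signal per gene, per the file headers. Salmon 1.10.1, DESeq2 1.37.4 and build BDGP6 are named in the submitters' processing notes, without roles.

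The 8898 genes that averaged 1 TPM or more were fitted on log2(TPM + 1) with limma 3.58.1 in R 4.3.3, with group as the only term and a variance trend. Benjamini-Hochberg adjustment covered all tested genes, and a call means an adjusted p below 0.05. The same threshold was set here on the authors' adjusted p, apart from the authors' own mark of each gene. The fit was checked on simulated data. TPM keeps no depth, so count models were not run. Positions came from the Ensembl annotation of the same build.

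The 8 genes, the lists and the markers were chosen with earlier results of these data known. Named genes were stwl, y, the neighbours of Fuca, up to 4 called genes per list (or the 2 most abundant) and the 5 profiles nearest to Fuca. The gene y, carried as a marker by some insertions, averaged 0.0255 ± 0.0264 TPM over the 4 controls (SD) and 2.50 ± 0.634 TPM over the 4 overexpression libraries (SD). The 3 list symbols without a match were left out. Alternatives were another pseudocount, other filters, another scaling, a replicate block, each library left out, and the authors' deposited test. Figures were drawn with matplotlib 3.10.9.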

Additional observations from a re-analysis of the deposited data

Results flagged for a closer look

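Each group of 4 libraries of the named genes, 62 groups in all, was searched for a library whose gap to its nearest neighbour took up most of the group's range, which chance gives in about 1 of 20 groups. It was found in 4. Ect3 was at 14.6 TPM in control 2, against 18.3 to 18.8 TPM in the other controls. CG7512, which overlaps the end of Fuca, was at 1.21 TPM in overexpression 1, against 1.53 to 1.54 TPM in the others. CG12592, the gene nearest to Fuca in profile, was at 1.69 TPM in control 1, against 2.45 to 2.60 TPM, and at 19.3 TPM in overexpression 1, against 21.7 to 21.9 TPM.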

How the results depend on the processing

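Over all alternatives the log2 fold change lay between 2.86 and 3.24 for Fuca and between 1.367 and 1.51 for Ect3, as a description, and that of the other 6 glycosidase genes kept its sign except for fdl without overexpression 4. The count of calls among the 8 depended on the setting: LManI and Gal also passed with median-of-ratios scaling, without overexpression 1 and in the authors' deposited test, Hexo2 with the replicate block and in that test, and Hexo1 without overexpression 1. Leaving out single libraries gave 336 to 988 genes called higher and 99 to 248 lower over the whole table, and 0 to 15 higher and 1 to 2 lower over the lists. Median-of-ratios scaling gave 626 lower genes, and 8 higher and 4 lower over the lists. The authors' deposited test gave 1113 higher and 893 lower genes, and 9 higher and 4 lower over the lists. The replicate block gave 576 higher and 202 lower genes over the whole table and 5 higher over the lists. The titles give replicate numbers but no shared batch, and the deviations of same-numbered libraries correlated at 0.128, -0.017, -0.134 and 0.144 across genes, with 1 of 4 numbers best matched to itself, so the numbers were not taken as pairs.

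The log2 fold changes of 7 uncalled genes changed sign when single libraries were left out, from -0.00053 to 0.0998 for fdl, -0.0257 to 0.114 for Mob2, -0.0649 to 0.0272 for CG7997, -0.088 to 0.0455 for Cp1, -0.0126 to 0.0665 for Sap-r, -0.0385 to 0.162 for Atg8a and -0.043 to 0.0237 for O-fut1. Sap-r also turned with median-of-ratios scaling (-0.00401) and in the authors' deposited test (-0.00471). The cause was not tested. The depth of each library is unknown, which limits what can be said of scarce genes such as CG11714, Gal and LManI. The authors' mean normalized signal, pooled over all samples, was 77.1, 169 and 225 for these genes, against 639 for Fuca.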
